A study of Mus musculus with 3 samples.

Results

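The interferon-stimulated antiviral effectors are 39 mouse genes whose products hinder viruses inside the cell, among them the IFIT and OAS families, the RIG-I-like sensors, the ISG15 system and the IFITM membrane proteins. They were taken by symbol from a list, and the rule itself uses no measured value, but the list was drawn up with earlier results of these data known. Of the 39 genes, 38 had a named probe set among 19505 named genes on the array, with 1 probe set each, and Ifi44 was not measured.

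Expression was measured in mouse CD8 T cells, the lineage that matures into cytotoxic cells. The cells were stimulated through CD3 and CD28 and kept in Tc1 cytokines, which favour cytotoxic cells that make interferon-gamma. All cells shared this stimulation and these cytokines, and the conditions were no added cholesterol (control), 0.5 µg/ml cholesterol and 0.75 µg/ml cholesterol. Each condition had 1 array of total RNA, the unit is a linear hybridisation intensity, and each difference below is a log2 difference between 2 arrays with no test and no replicate check. Mouse strain, number of animals, culture time and carrier of the cholesterol are not stated in the labels, so carrier and cholesterol cannot be told apart.

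The 3 arrays had medians of 32.5 in the control, 32.4 at 0.5 and 33.0 at 0.75 µg/ml. The 95th percentile of the negative-control probe sets reached at most 102, and that intensity serves below as the background level. The CD8 T cell genes were bright on each array. Cd8a, a coreceptor chain, was at 4225 in the control, 4164 at 0.5 and 3313 at 0.75 µg/ml. Cd3e, of the T cell receptor complex, was at 4364, 4650.1 and 4594 in the same order of dose, and the granzyme gene Gzmb at 7611, 7741 and 8136.

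Interferons bind receptors that activate transcription factors. Those downstream of type I interferon, STAT2 and IRF9 among them, act at the interferon-stimulated response element (ISRE), and interferon-gamma acts mainly through the GAS element. The effector genes lie at the end of this path, and T cells that are not infected also express many of them at a basal level. The arrays measured RNA of a whole culture, so fewer cells expressing a gene and less RNA per cell cannot be told apart.

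The upstream sequence of the effectors was read from RefSeq promoter windows of the build GRCm38.p6, which run from 250 bases before to 50 after an annotated start. Windows were found for 30 of the 39 genes. The search letters for the ISRE were GAAA, any 2 bases and GAAA again, on either strand. A window with these letters was found for 15 of the 30 genes, or 50% of them, against 3.99% of all 27025 genes with a window. The letters of the GAS element, TTCNNNGAA, which read the same on both strands, were in a window of 7 of the 30 genes, or 23.3%, against 9.55% of all genes. A match is a run of letters and not a measured binding site, and matches can overlap each other. A gene without a match may still hold the element in other letters or outside its window. The annotated start of a window was the RefSeq gene start in 60.4% of the windows compared.

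The stretches below show these matches for 9 genes that were lower at 0.75 µg/ml and for Ifitm2 and Ifitm3, which were higher. They are written 5′ to 3′ along the gene's strand, with the ISRE letters in capitals.
Ifit1, chr19:34640765-34640833, plus strand: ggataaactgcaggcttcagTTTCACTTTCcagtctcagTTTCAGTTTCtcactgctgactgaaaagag
Ifit3, chr19:34583353-34583436, plus strand: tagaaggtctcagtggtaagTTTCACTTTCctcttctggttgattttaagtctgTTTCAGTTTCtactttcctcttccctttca
Ifit3b, chr19:34607749-34607832, plus strand: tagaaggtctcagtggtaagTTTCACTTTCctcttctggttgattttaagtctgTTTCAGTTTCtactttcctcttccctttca
Isg15, chr4:156200855-156200916, minus strand: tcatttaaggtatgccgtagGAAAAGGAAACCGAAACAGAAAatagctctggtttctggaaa
Oas1a, chr5:120907510-120907565, minus strand: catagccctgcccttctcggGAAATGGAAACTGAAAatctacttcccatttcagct
Oas3, chr5:120777705-120777754, minus strand: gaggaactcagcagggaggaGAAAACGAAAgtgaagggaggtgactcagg
Bst2, chr8:71537567-71537622, minus strand: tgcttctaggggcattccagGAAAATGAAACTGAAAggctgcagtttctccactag
Trim30a, chr7:104465200-104465249, minus strand: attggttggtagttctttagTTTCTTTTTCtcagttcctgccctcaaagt
Phf11b, chr14:59341351-59341400, minus strand: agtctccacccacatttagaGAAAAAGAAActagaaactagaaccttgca
Ifitm2, chr7:140955978-140956027, minus strand: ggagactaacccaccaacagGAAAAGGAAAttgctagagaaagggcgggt
Ifitm3, chr7:141010715-141010762, minus strand: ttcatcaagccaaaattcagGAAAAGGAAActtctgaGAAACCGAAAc
The Ifit3 and Ifit3b stretches are the same base for base, and their aligned windows share 259 of 260 bases (99.6%). The Isg15 stretch holds 3 overlapping matches, and those of Oas1a and Bst2 hold 2 each. In Ifitm3 both matches begin just after the annotated start, at 2 and 19 bases, while in Ifit1 the first begins 104 bases before it. Matches just after the start were also found in lower genes, at 2 bases in Ddx58 and 18 in Eif2ak2. That of Ifitm2, which was higher, begins 46 bases before it. The lower genes shown are a selection, and Ddx58, Eif2ak2, Ifih1 and Rsad2, also lower, hold the letters but are not shown.

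**Figure D1:**
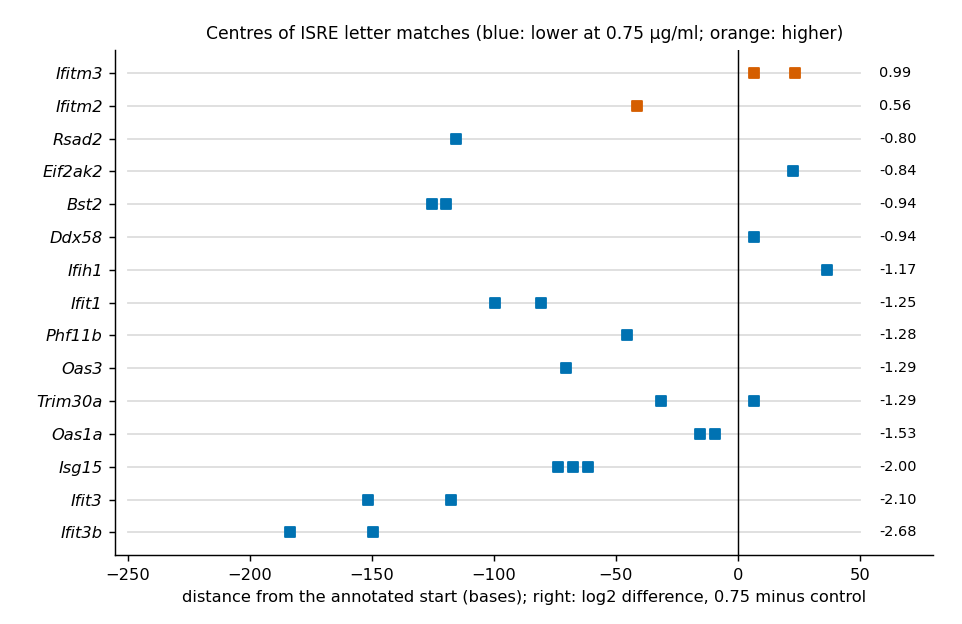
Position of each match to the ISRE letters in the promoter windows of the 15 genes that have one. The horizontal axis is the distance in bases from the annotated start, each square is the centre of a match, and Trim30a has a match in each of 2 windows. The number at the right of each gene is its log2 difference of 0.75 µg/ml minus control. These numbers are given without bounds, so those of genes with an array under the background level are not exact. Blue squares mark the 13 genes that were lower at 0.75 µg/ml and orange squares the 2 that were higher, Ifitm3 (0.99) and Ifitm2 (0.56).

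At 0.75 µg/ml cholesterol most antiviral effectors were lower than in the control, while the 3 Ifitm genes and Mx1 were higher. Mx1 was under the background level in the control. Of the 38 measured genes, 34 were below the control and 4 above it, with a median log2 difference of -0.96. Over the 10940 genes that passed a level filter (a mean log2 value of at least 5.02) the median was 0.00, and 47.7% were below the control. At least 2-fold lower were 17 of the 38 effectors, against 1.57% of genes past the filter and 1.07% of all 19505 named genes. None was at least 2-fold higher, against 0.356% of genes past the filter. At least 1.5-fold lower were 30 of the 38, against 4.55% of genes past the filter, and 2 were at least 1.5-fold higher, against 2.53%. The filter passed 36 of the 38, all but Oas1a and Oasl1. Of these 36, 32 were below the control and 16 at least 2-fold lower, with a median of -0.96.

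Low signal limits several of these values. Over the background level were 30 of the 38 effectors in the control, 30 at 0.5 and 24 at 0.75 µg/ml, and 7 were under it on every array. Of the 17 that were at least 2-fold lower, 10 were so with all values under 102 raised to that level, against 0.896% of genes past the filter treated alike, and the list's median was then -0.76. The 17 include Ifit1, Oas1a, Isg15 and Rtp4, which were under the background level on every array and are given by intensity without a fold.

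**Figure D2:**
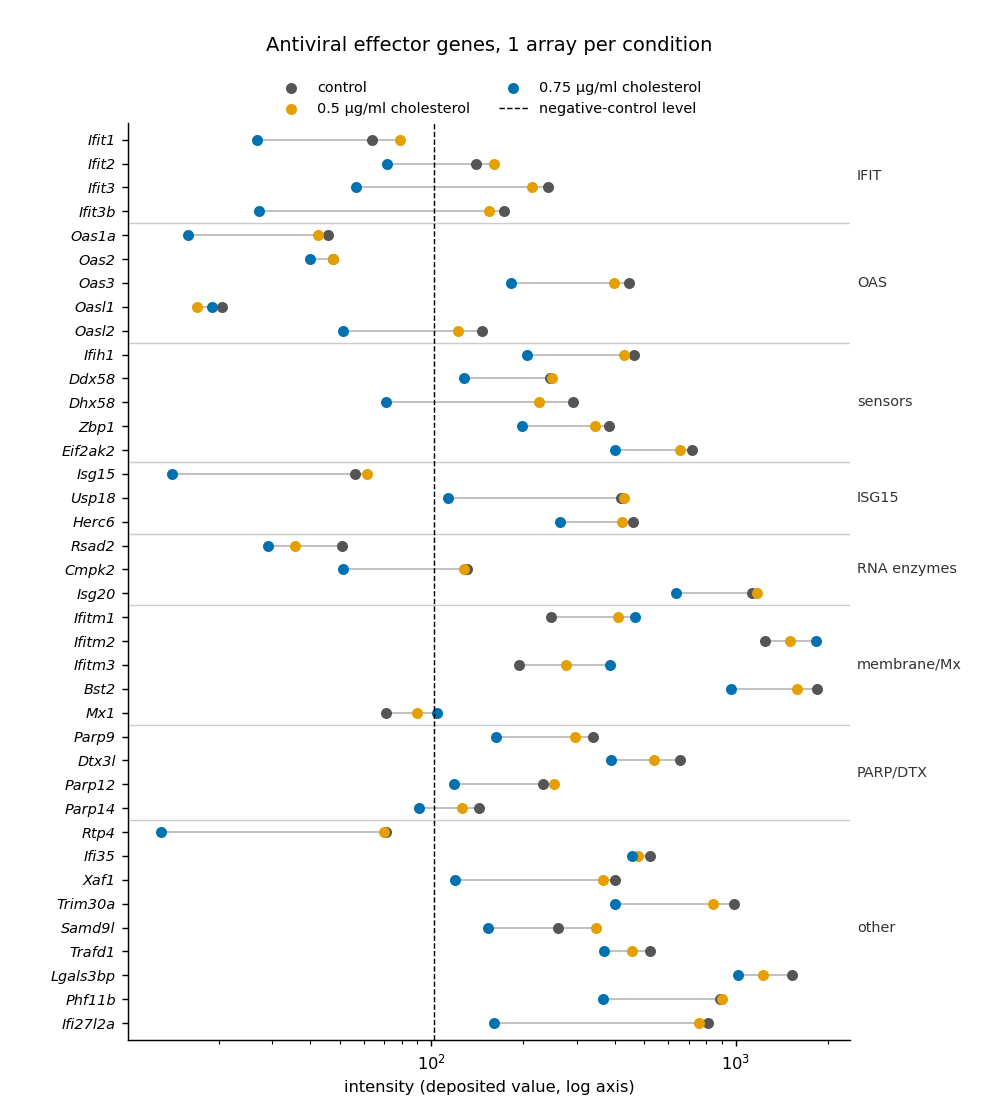
Intensity of the 38 measured effector genes on each array, on a log axis, with grey points for the control, orange for 0.5 and blue for 0.75 µg/ml cholesterol. Rows are grouped by role, the grey bar joins the lowest and highest array of a gene, and the dashed line is the background level, 102. The blue point lies left of the other two for nearly all genes, and right of them for Ifitm1, Ifitm2, Ifitm3 and Mx1.

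IFIT proteins bind viral RNA and block its translation. Ifit3 was at 242 in the control, 214 at 0.5 and 56.4 at 0.75 µg/ml, at least 2.38-fold lower at 0.75 µg/ml than in the control, a bound that sets the dim array at the background level. Ifit3b, its close copy, was at 174 in the control, 155 at 0.5 and 27.1 at 0.75 µg/ml, at least 1.70-fold lower by the same bound. Both genes were over the background level except at 0.75 µg/ml.

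Ifit2 was at 140 in the control, 160 at 0.5 and 71.3 at 0.75 µg/ml, at least 1.37-fold lower at 0.75 µg/ml than in the control. Ifit1, which recognises the cap structure of foreign RNA, was at 63.8 in the control, 79.2 at 0.5 and 26.7 at 0.75 µg/ml. The 4 genes lie near each other in the RefSeq gene order, as Ifit2, Ifit3, Ifit3b and Ifit1. Probes can cross-hybridise within this family, so the 4 values are not fully separate measurements.

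OAS enzymes sense double-stranded RNA and make 2-5A, the activator of RNase L, while Oasl1 and Oasl2 are related proteins. Oas3 was at 446 in the control, 399 at 0.5 and 183 at 0.75 µg/ml, a log2 difference of -1.29 at 0.75 µg/ml from the control. Oasl2 was at 146 in the control, 122 at 0.5 and 51.4 at 0.75 µg/ml, at least 1.44-fold lower at 0.75 µg/ml. The other members were under the background level throughout. Oas1a was at 45.9 in the control, 42.3 at 0.5 and 15.9 at 0.75 µg/ml. Oas2 was at 47.3 in the control, 47.3 at 0.5 and 40.04 at 0.75 µg/ml, and Oasl1 at 20.5, 17.0 and 19.1 in that order. The family therefore rests on Oas3 and Oasl2, and its genes are alike in sequence too.

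The cytosolic sensors of foreign RNA were lower at 0.75 µg/ml as well. Dhx58 encodes LGP2, a regulator of the other RIG-I-like sensors. It was at 291 in the control, 226 at 0.5 and 70.8 at 0.75 µg/ml, at least 2.86-fold lower at 0.75 µg/ml than in the control. Ifih1, the gene of MDA5, was at 463 in the control, 430.4 at 0.5 and 206 at 0.75 µg/ml, a difference of -1.17 at 0.75 µg/ml. Ddx58, the gene of RIG-I, was at 245 in the control, 249 at 0.5 and 128 at 0.75 µg/ml, a difference of -0.94. All 3 were over the background level in the control and at 0.5 µg/ml, and their values differed little between these arrays except for Dhx58 at -0.36.

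Zbp1, a sensor of Z-form nucleic acid that can start cell death, was at 384 in the control, 344 at 0.5 and 199 at 0.75 µg/ml. Eif2ak2 encodes PKR, the kinase that stops translation on double-stranded RNA. It was at 720 in the control, 655 at 0.5 and 401 at 0.75 µg/ml. Both missed the 2-fold mark at 0.75 µg/ml, with log2 differences of -0.95 and -0.84 from the control, and both were over the background level on every array.

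ISG15 is a ubiquitin-like protein that is joined to other proteins, and the mouse ligase for it is HERC6. Isg15 was at 56.3 in the control, 61.6 at 0.5 and 14.1 at 0.75 µg/ml, under the background level on each array. Usp18, which removes ISG15 and also dampens the type I interferon receptor, was at 421 in the control, 428 at 0.5 and 113 at 0.75 µg/ml. Its difference was -1.89 at 0.75 µg/ml from the control. Herc6 was at 459 in the control, 424 at 0.5 and 264 at 0.75 µg/ml, a difference of -0.80. Usp18 is over the background level on all arrays, so its 3.72-fold lower value at 0.75 µg/ml was given no bound. Its 113 at that dose is close to the background level of 102, so the fold is not exact.

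Among the enzymes that act on RNA or nucleotides, Isg20, an exonuclease for RNA, was at 1130.4 in the control, 1176 at 0.5 and 637 at 0.75 µg/ml. Cmpk2, a mitochondrial nucleotide kinase, was at 131 in the control, 128 at 0.5 and 51.2 at 0.75 µg/ml, at least 1.29-fold lower at 0.75 µg/ml. Rsad2 encodes viperin, which makes a chain-terminating nucleotide, and was under the background level throughout, at 50.8 in the control, 35.6 at 0.5 and 29.1 at 0.75 µg/ml. Rsad2 and Cmpk2 are neighbours in the RefSeq gene order. Isg20 differed by -0.83 at 0.75 µg/ml from the control and so missed the 2-fold mark, and the bound for Cmpk2 is under 2-fold too.

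The membrane proteins that block virus entry went the other way. Ifitm1 was at 247 in the control, 409 at 0.5 and 465 at 0.75 µg/ml, a log2 difference of 0.73 at 0.5 and 0.91 at 0.75 µg/ml from the control. Ifitm3, which acts in late endosomes, was at 195 in the control, 276 at 0.5 and 387 at 0.75 µg/ml, with differences of 0.51 and 0.99 at the rising doses. Ifitm2 was at 1246 in the control, 1509 at 0.5 and 1835 at 0.75 µg/ml, with differences of 0.28 and 0.56. All 3 were over the background level on every array and stood in the order of the dose, and Ifitm3 was just under 2-fold at 0.75 µg/ml.

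The Ifitm genes are neighbours, in the order Ifitm2, Ifitm1 and Ifitm3, and similar in sequence. Further genes of the family with a named probe set, looked up after these values were seen, were under the background level on each array. Ifitm7 was at 56.9 in the control, 59.2 at 0.5 and 72.5 at 0.75 µg/ml. Ifitm5 lay between 14.6 and 15.4 and Ifitm6 between 7.02 and 8.62 over the arrays.

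Bst2, which encodes tetherin, a protein that holds budding virus at the cell surface, was at 1845 in the control, 1587 at 0.5 and 964 at 0.75 µg/ml. It thus went with the larger set, with a difference of -0.94 at 0.75 µg/ml, and not with the Ifitm genes. Mx1 encodes a dynamin-like GTPase that is defective in many laboratory strains of mice. It was at 70.8 in the control, 89.8 at 0.5 and 105 at 0.75 µg/ml, over the background level only on the last array, where it was at least 1.03-fold higher than in the control.

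**Figure D3:**
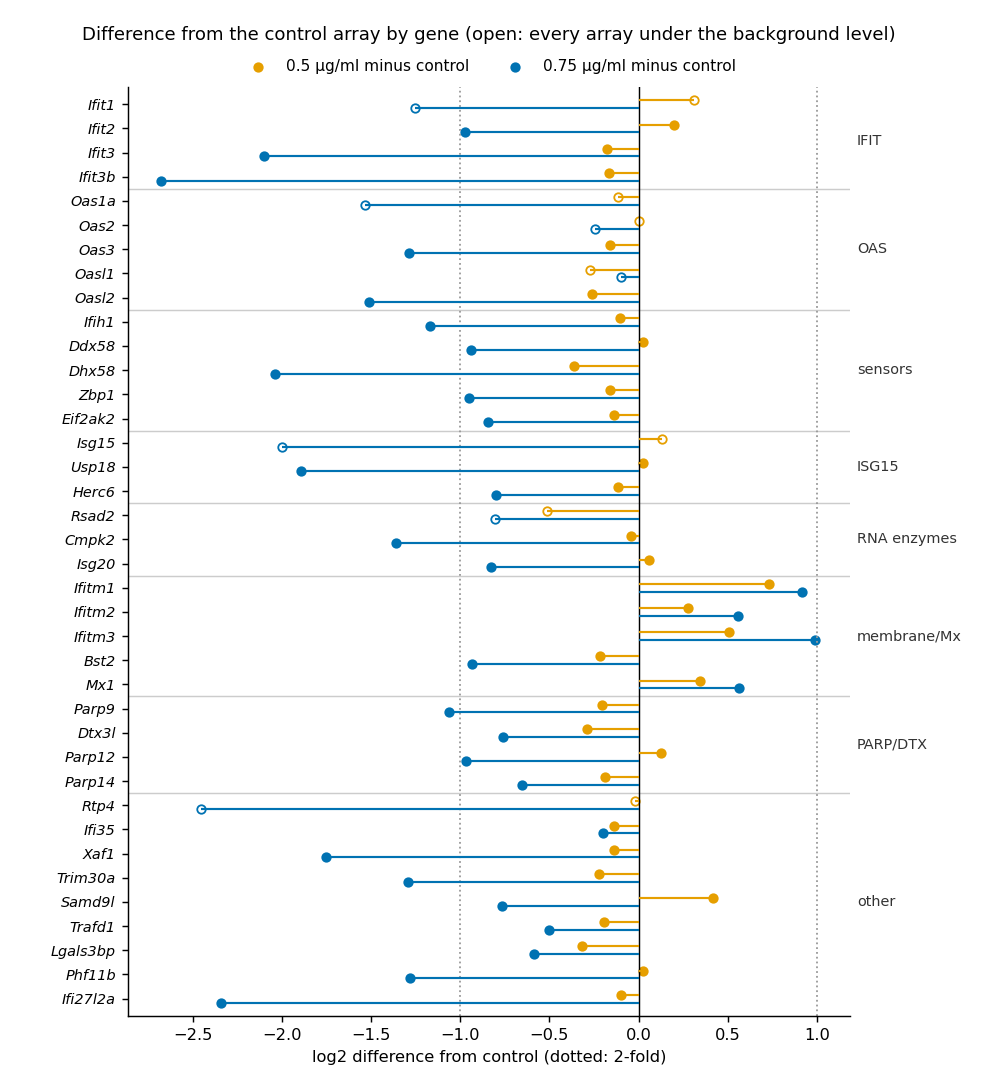
Log2 difference from the control for each measured effector gene, in orange for 0.5 and blue for 0.75 µg/ml cholesterol. Open points mark genes under the background level on every array, and dotted lines mark 2-fold. Differences are plotted without bounds, so those of genes with an array under the background level are not exact. At 0.75 µg/ml the points run from -2.68 for Ifit3b, which was under that level at this dose, to 0.99 for Ifitm3, while at 0.5 µg/ml they lie between -0.51 and 0.73.

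PARP9 and the ubiquitin ligase DTX3L form a complex, and PARP12 and PARP14 are ADP-ribosyltransferases with antiviral activity. Parp9 was at 340.1 in the control, 295 at 0.5 and 163 at 0.75 µg/ml, a difference of -1.06 at 0.75 µg/ml from the control. Dtx3l was at 657 in the control, 538 at 0.5 and 389 at 0.75 µg/ml, a difference of -0.76. Parp14, which lies beside both in the gene order, was at 143 in the control, 126 at 0.5 and 90.9 at 0.75 µg/ml, at least 1.40-fold lower at 0.75 µg/ml. Parp12 was at 232 in the control, 253 at 0.5 and 119 at 0.75 µg/ml. All 4 were lower at 0.75 µg/ml, and the 3 over the background level on every array differed by -1.06, -0.76 and, for Parp12, -0.97.

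The other effectors included some of the lowest differences. Ifi27l2a, a small mitochondrial protein gene, was at 813 in the control, 758 at 0.5 and 160.2 at 0.75 µg/ml, 5.07-fold lower at 0.75 µg/ml with every array over the background level. Xaf1, a binding partner of the inhibitor of apoptosis XIAP, was at 402 in the control, 365 at 0.5 and 119 at 0.75 µg/ml, a difference of -1.75. Rtp4, a chaperone for receptors that also restricts viruses, was at 71.1 in the control, 70.1 at 0.5 and 12.97 at 0.75 µg/ml, with each array under the background level. Ifi27l2a is the effector with the lowest difference at 0.75 µg/ml among those over the background level on every array.

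Trim30a, a ubiquitin ligase that restrains Toll-like receptor signalling, was at 982 in the control, 843 at 0.5 and 401 at 0.75 µg/ml. Phf11b, a PHD finger protein gene, was at 887 in the control, 902 at 0.5 and 365 at 0.75 µg/ml. At 0.75 µg/ml their differences from the control were -1.29 and -1.28, and both belong to families with similar copies. Samd9l, which curbs translation, was at 260 in the control, 347 at 0.5 and 153 at 0.75 µg/ml. It stood above the control at 0.5 µg/ml (0.42) and below it at 0.75 µg/ml (-0.76).

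Smaller differences at 0.75 µg/ml were also found in this mixed group. Lgals3bp, a secreted galectin-binding glycoprotein gene, was at 1530 in the control, 1226 at 0.5 and 1017 at 0.75 µg/ml. Trafd1, a feedback inhibitor of innate signalling, was at 522 in the control, 457 at 0.5 and 368 at 0.75 µg/ml. Ifi35 was at 523 in the control, 475 at 0.5 and 455 at 0.75 µg/ml. Their differences at 0.75 µg/ml from the control were -0.59, -0.50 and -0.20, and Ifi35 lay inside the SD of 0.31 that positive-control probe sets showed between these 2 arrays.

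At 0.5 µg/ml the effectors differed little from the control. Of the 38, 24 were lower, 13 were higher and Oas2 was equal, with a median of -0.12. Of the genes past the filter 44.5% were lower, and their median was 0.01. Of the 36 effectors past it, 22 were lower. At least 2-fold lower were 0 of the 38, against 0.0548% of genes past the filter and 0.149% of all named genes. The largest differences among effectors over the background level were those of Ifitm1 (0.73) and Ifitm3 (0.51) above the control, and that of Dhx58 (-0.36) below it. The SD of positive-control probe sets between these arrays was 0.30, so most effectors lay within it.

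Between the doses, 33 of the 38 effectors were lower at 0.75 than at 0.5 µg/ml and 5 were higher, with a median log2 difference of -1.01. Of the genes past the filter 51.1% were lower, with a median of -0.01. Of the 36 effectors past it, 32 were lower and 18 at least 2-fold lower. At least 2-fold lower were 19 of the 38, against 1.19% of genes past the filter and 0.743% of all named genes. With values under 102 raised to that level 11 were, against 0.686% of genes past the filter treated alike, and the median was -0.63. Parp12 and Samd9l, which missed the 2-fold mark against the control, passed it here with -1.09 and -1.18, and Parp9 did not with -0.86. Ifit2, under the background level at 0.75 µg/ml, was at least 1.58-fold lower than at 0.5 µg/ml. The 5 higher genes were the 3 Ifitm genes, Mx1 and Oasl1, of which Oasl1 was under the background level on both arrays. Mx1 was under it at 0.5 µg/ml, so it was at least 1.03-fold higher and no more can be said. Both comparisons of 0.75 µg/ml use the same array of that dose.

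**Figure D4:**
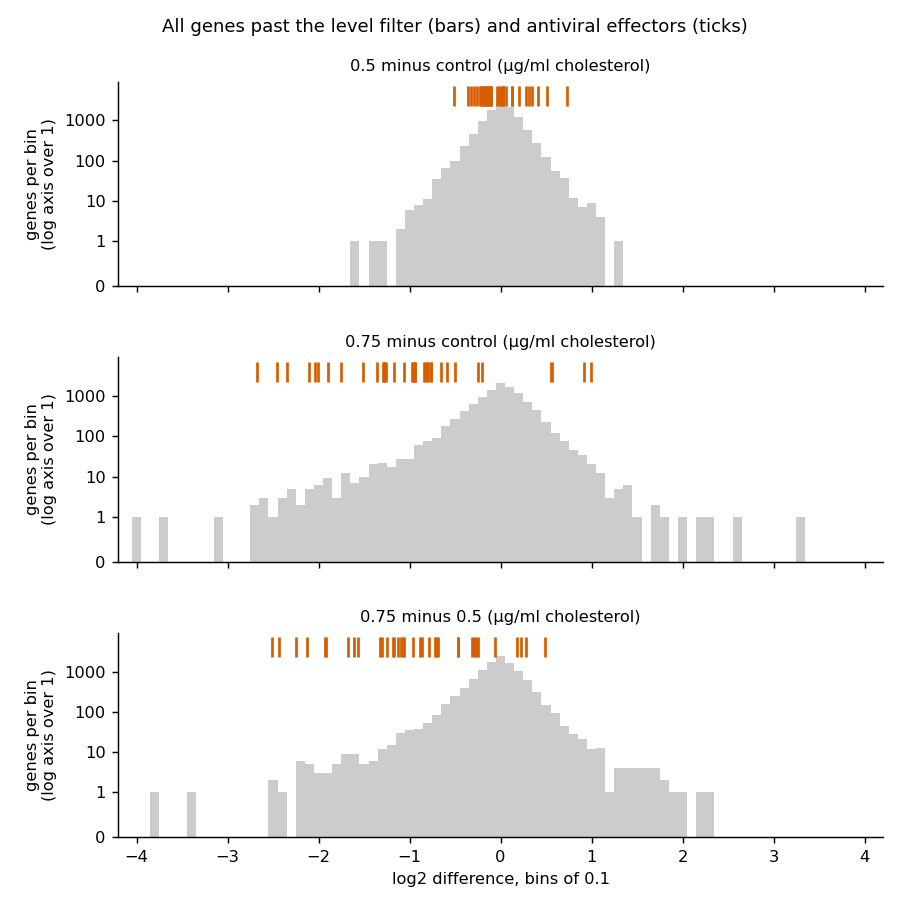
Number of genes per bin of 0.1 in log2 difference, over the 10940 genes past the level filter (grey bars, log axis over 1), with the 36 effectors past the filter as orange ticks. The panels show 0.5 minus control, 0.75 minus control and 0.75 minus 0.5 µg/ml. The ticks gather near 0 in the top panel and lie mostly below 0 in the other two, with 4 ticks above 0 in each.

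Effectors with and without the ISRE letters were lower at 0.75 µg/ml. At 0.75 µg/ml the 15 measured genes with ISRE letters in a window had a median difference of -1.25 from the control, with 13 lower and 9 at least 2-fold lower, or 5 after dim values were raised to the background level. The 14 measured genes with a window but no such letters had a median of -0.78, with 13 lower and 3 at least 2-fold lower, or 1 with values raised in that way. The 9 without a window in the table had a median of -1.06. Ifit1, Isg15, Oas1a and Rsad2, with the letters, and Oasl1, without them, were under the background level on every array. The median of -1.25 is the raw value of Ifit1, so it is not exact, and the gap between the medians is uncertain. The ranges of the first 2 sets overlap, and Ifitm2 and Ifitm3 hold the letters while Ifitm1 does not.

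Other genes of the interferon path were set beside the effectors. Of 38 measured further interferon-stimulated genes, 34 were below the control at 0.75 µg/ml and 6 were at least 2-fold lower, with a median of -0.34. After dim values were raised to the background level, 3 of these genes were at least 2-fold lower. Ifit1bl1, a gene of the Ifit family, was at 24.95 at 0.75 µg/ml against 124 in the control, at least 1.22-fold lower. Ube2l6, the conjugating enzyme for ISG15, was at 53.7 at 0.75 µg/ml against 138 in the control, at least 1.36-fold lower. Slfn1 and Helz2, over the background level on every array, differed by -1.33 and -1.21. The effectors' median was -0.96, or -0.76 with values raised to 102, and that of these genes was -0.34, or -0.28 with values raised, without a test.

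Of 17 measured interferon-gamma-inducible genes, 14 were below the control at 0.75 µg/ml and 1 was at least 2-fold lower, with a median of -0.40. After dim values were raised to the background level that count was 0. The gene was Cxcl10, which encodes a chemokine, at 31.3 at 0.75 µg/ml against 105 in the control, and a bound of 1.03-fold lower is all that its signal over background allows. The guanylate-binding protein genes Gbp2 and Gbp7 differed by -0.88 and -0.68, and the GTPase gene Iigp1 by -0.63. Of the 12 measured interferon genes, 10 were under the background level on every array. Ifng was at 333 in the control, 346 at 0.5 and 294 at 0.75 µg/ml, and Ifna5 stayed between 83.3 and 106.

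Of 17 measured receptor and signalling genes, 15 were below the control at 0.75 µg/ml and 3 were at least 2-fold lower, with a median of -0.34. Irf7, a transcription factor that amplifies the type I response, was at 95.7 at 0.75 µg/ml against 507 in the control, at least 4.98-fold lower. Stat2 was at 867 in the control, 581 at 0.5 and 289 at 0.75 µg/ml. Ifngr2, a chain of the interferon-gamma receptor, was at 387 in the control, 252 at 0.5 and 144 at 0.75 µg/ml. Irf9 and Irf1 differed by -0.58 and -0.70 at 0.75 µg/ml. At 0.5 µg/ml Stat2 and Ifngr2 differed by -0.58 and -0.62 from the control, lower than any of the 38 effectors there.

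Of 9 measured sensing adaptors and related genes, 5 were below and 4 above the control at 0.75 µg/ml, with a median of -0.04. Tlr7, an endosomal RNA receptor, was at 91.4 at 0.75 µg/ml against 247 in the control, at least 2.43-fold lower. Sting1, Tbk1 and Ticam1 differed by 0.33, 0.23 and -0.29. Outside all lists, the 5 genes whose differences were closest to the medians of the 36 effectors past the filter, -0.11 at 0.5 and -0.96 at 0.75 µg/ml, were Irak2, H2-Q10, Jdp2, Slc35f5 and Vav3. All 5 were under the background level at 0.75 µg/ml, at 55.4 to 92.7, so their differences there are not exact and the order of likeness over these 3 arrays is uncertain.

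**Figure D5:**
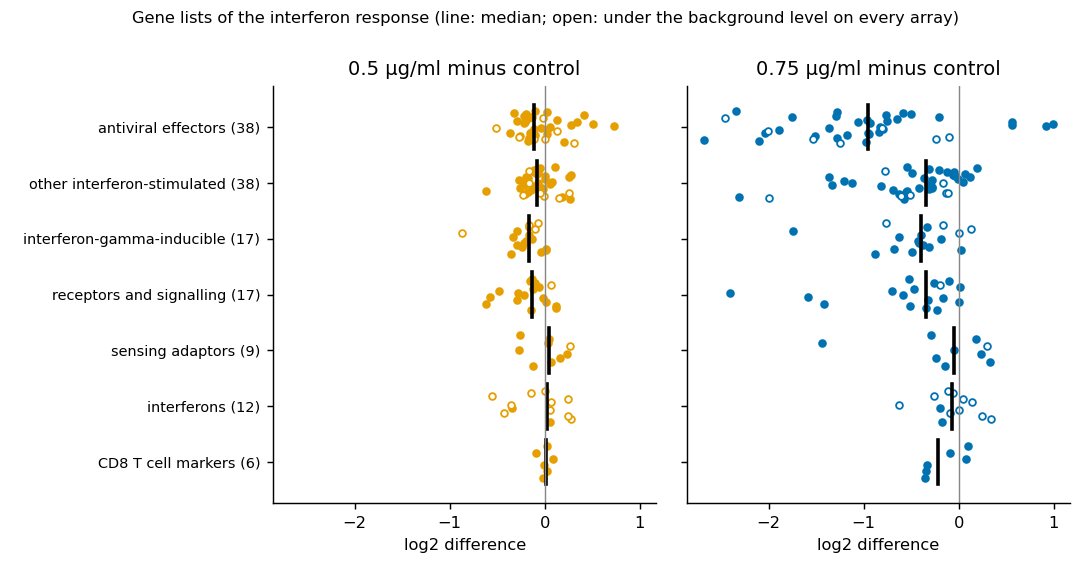
Log2 difference from the control for each measured gene of 7 lists, at 0.5 µg/ml (left, orange) and 0.75 µg/ml (right, blue), with the number of genes in brackets and the median as a black line. Open points are genes under the background level on every array. At 0.75 µg/ml the effectors' median is -0.96, against -0.34, -0.40, -0.34, -0.04, -0.07 and -0.21 for the lists below it in that order.

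Markers of other cell types were mostly at background. Of the 6 macrophage and monocyte markers and 7 dendritic cell markers measured, 0 were over the background level on any array. The plasmacytoid dendritic cell list, of a cell type that makes type I interferon, had 1 of 7 over it. That gene was Tcf4, which T cells can express too. Tcf4 was at 258 in the control, 263 at 0.5 and 188 at 0.75 µg/ml, a difference of -0.46 at 0.75 µg/ml. Siglech, the defining marker, was under the background level, at 13.6 at 0.75 µg/ml against 11.9 in the control. Of the 7 plasmacytoid markers, 3 were lower and 4 higher at 0.75 µg/ml than in the control. The summed intensity of that list was 423 in the control, 416 at 0.5 and 370.2 at 0.75 µg/ml. The sum of the 6 B cell markers was 204 in the control, 181 at 0.5 and 193 at 0.75 µg/ml, with Cd79b alone over the background level on any array. The 4 NK cell markers summed to 610 in the control, 678 at 0.5 and 851 at 0.75 µg/ml, mostly Eomes, which CD8 T cells also express. The 3 CD4 T cell markers summed to 249.6 in the control, 285 at 0.5 and 255 at 0.75 µg/ml. The sum is mostly Zbtb7b, at 178, 235 and 209 in that order. Cd4 itself was at 61.6, 39.4 and 35.7, under the background level on each array. Among the CD8 T cell markers, Cd8a, Cd8b1 and Cd3d were lower together with the effectors at 0.75 µg/ml, by differences of -0.35, -0.34 and -0.34, while Cd3g, Cd3e and Gzmb differed by -0.09, 0.07 and 0.10. The 6 markers had a median of -0.21, and their part in the result was not tested.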

How the data were processed

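The deposited table gives, for every probe set, an intensity on each of the 3 arrays. The size of the values shows a linear scale. How the authors corrected background and normalized, and with which software, is not given in the sources used here. Of 28846 probe sets, 22206 were transcript probe sets, and 5222 negative, 1324 positive and 94 spike-in or background controls stayed out of gene counts. Platform annotation named 19572 probe sets, whose gene identifiers all matched RefSeq genes of GRCm38.p6. For a gene with several probe sets the brightest by mean was used. Log2 values were taken with a floor of 1, which changed 0 values. Where 1 array of a pair was under the background level, the fold was bounded by raising it to that level.

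With 1 array per condition no test was possible, and precision is limited by the number of arrays. The log2 differences and 2-fold calls were tested on simulated data, with less noise than the positive-control probe sets showed. The bounds, the list medians and the promoter search were not tested in this way. All effectors were named. Of the other interferon lists the rule took up to 4 genes with the largest mean difference over both doses and an array over the background level, plus a fixed set such as Ifng, Stat2, Irf7 and Irf9. Some genes of that rule are not reported here. The genes, lists and rule were chosen with earlier results of these data known. Promoter windows came from RefSeq (GRCm38.p6), and windows were aligned with Biopython 1.88. The work used Python 3.11.15, numpy 2.4.6, pandas 2.3.3 and matplotlib 3.10.9.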

Additional observations from a re-analysis of the deposited data

How the results depend on the processing

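The effectors' median differences kept their sign under all 7 alternatives, ranging from -0.136 to -0.0707 at 0.5 and from -0.996 to -0.762 at 0.75 µg/ml from the control, and from -1.05 to -0.629 between the doses. Raising values under 102 to that level gave 10 effectors at least 2-fold lower at 0.75 µg/ml than in the control and 11 between the doses, where the median was -0.629. By construction there are fewer genes without the Ifit, Oas and Ifitm families, and 11 of 26 were at least 2-fold lower against the control and 12 between the doses. At 1.5-fold, 30 of 38 were lower and 2 higher at 0.75 µg/ml than in the control. Of the genes past the filter, 4.55% were lower and 2.53% higher at that mark. Quantile normalization put 1 effector at least 2-fold higher at 0.75 µg/ml than in the control. It also turned the direction of Phf11b at 0.5 µg/ml, while centring each array on its median turned none. The count of lower effectors at 0.5 µg/ml was 0 under all 8 alternatives, against 0.0548% of genes past the filter at 2-fold. The other settings were a pseudocount of 16, the mean over probe sets, and only the effectors over the background level on at least 1 array. From 0, only quantile normalization, centring and the 1.5-fold mark could raise that count. The rest shrink differences, drop genes or leave them as they were. The mean over probe sets could change nothing, because each measured effector has 1 probe set. No paired analysis was possible because each condition had 1 array. Signal over background limits the 7 effectors that were under 102 on every array.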
